A study of Rattus norvegicus with 6 samples.

Results

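Among the transcripts of INS-1 cells were those of several peptide hormones other than insulin, and 9 genes of this kind were examined: Gcg (proglucagon), Gast (gastrin), Nts (neurotensin), Ghrl (ghrelin), Sst (somatostatin), Ppy (pancreatic polypeptide), Pyy (peptide YY), Npy (neuropeptide Y) and Cck (cholecystokinin). Each was taken by its symbol from the 35362 gene rows of the deposited table, which held 1 row for each of the 9. They are hormones of islet, gut and nerve, and were selected on their measured RPKM in S487D and S487A cells, so their levels and differences are given as a description, with no test. Proglucagon and neurotensin transcripts were 8.52 and 26.8 times as abundant in S487D as in S487A cells, gastrin transcripts were 12.5 times as abundant in S487A as in S487D cells, and 4 of the 9 genes had 1 read or none in every library.

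INS-1, an insulin-secreting line derived from a rat insulinoma, stands in for the pancreatic beta cell. The cells, at passages 75 to 80, had been transduced with a retrovirus made from pMX-puro-Flag-Menin, so that they overexpressed Flag-tagged menin carrying either aspartate (S487D) or alanine (S487A) in place of the serine named in those labels, and both groups were grown in the same medium. Aspartate is often used to mimic a phosphorylated serine, and alanine cannot be phosphorylated. Messenger RNA was sequenced in 3 libraries of each group, and the study's question was how GLP-1 signalling acts on menin through its phosphorylation. Cells with wild-type menin or with no transgene were not analysed here. Whether the 3 libraries of S487D, or of S487A, stem from independent cultures is not stated, so p-values measure only the spread between them, which may be technical, and the mutant cannot be told apart from the cell population that carries it.

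Islet and gut endocrine cells store peptide hormones in dense granules, and each cell type usually makes few of them. The precursors are cut at pairs of basic residues by prohormone convertases, trimmed by carboxypeptidase E and often amidated at the C-terminus. Proglucagon gives glucagon in islet alpha cells, where convertase 2 predominates, and GLP-1 and GLP-2 in gut L cells and some neurons, where convertase 1/3 predominates. Gastrin is the acid-stimulating hormone of antral G cells and is a known tumour hormone in carriers of mutations in the gene for menin. Levels are in RPKM, reads scaled to gene length and to the reads assigned in the library, and can therefore be compared between genes; ± gives the SD over 3 libraries. Differences between groups are S487D minus S487A on the log2(RPKM + 1) scale, where low genes change less than their RPKM does, and a gene said to rise or fall by a value did so on this scale. In bulk RNA, fewer cells expressing a gene and less RNA per cell cannot be told apart.

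The libraries held 9444801 to 10253573 assigned reads in S487D and 10037113 to 10867550 in S487A. Men1 averaged 112 ± 7.8 RPKM in S487D and 74.3 ± 2.8 RPKM in S487A (SD, n = 3 each; difference 0.58, SE 0.0551, limma adjusted p = 2.89e-05; two-sided exact permutation p = 0.1, the smallest that 3 libraries against 3 can give). Reads of the transgene and of the cells' own Men1 were not separated. Of 10 beta cell markers, 9 were found and all 9 passed the filter of at least 1 RPKM in at least 3 libraries, of which 7 rose and 1 fell, where 44.4% of all tested genes were called. The call of Ins1 was lost only under quantile normalization. That scaling gives genes of equal rank the same value in every library, so it cannot show a difference in a gene that ranks alike in all. The call of Pdx1, a beta cell factor with a difference of 0.12, was lost in 8 of 14 alternatives (limma adjusted p = 0.0299, and 0.00489 to 0.865 over the alternatives). The marker sum, mostly Ins1, was 17665 to 18856 RPKM in S487D and 5279 to 5829 RPKM in S487A. All 5 pancreatic acinar markers had no read in any library. Of 6 duct markers, only the keratin gene Krt7 passed the filter, at 82.7 ± 2.0 RPKM in S487D and 217 ± 9.5 RPKM in S487A (difference -1.38, limma adjusted p = 2.18e-08). The summed level of the duct list, mostly Krt7, was 81.0 to 84.9 RPKM in S487D and 208 to 227 RPKM in S487A. Spp1 of that list was at 0. None of the 7 markers of stromal, endothelial and immune cells passed the filter, with sums of 1.44 to 1.79 RPKM in S487D and 1.79 to 2.17 RPKM in S487A, and Col3a1, Cdh5 and Ptprc at 0. The part of these differences in the results below was not tested.

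Gcg, on chromosome 3 from 48442635 to 48451650 (rn6, minus strand), was the most abundant of the 9 in S487D cells. It was read at 864, 783 and 809 RPKM in the S487D libraries and at 92.9, 91.6 and 104 RPKM in the S487A libraries. Every S487D library lay far above every S487A library. The means were 819 ± 41 RPKM in S487D and 96.0 ± 6.6 RPKM in S487A (SD, n = 3 each), a ratio of 8.52 and a difference of 3.08. Behind these values stood 7840 to 9319 reads per S487D library and 981 to 1121 per S487A library. By mean level Gcg ranked 47 among all gene rows in S487D and 829 in S487A. It exceeded both Ins2 and islet amyloid polypeptide in every S487D library, where Ins2 held 330 to 359 RPKM and Iapp 447 to 507 RPKM, and lay below both in every S487A library, where Ins2 held 106 to 109 RPKM and Iapp 225 to 248 RPKM. Ins1 and Ins2 are near-identical copies and the Iapp row overlaps Slco1a5, so the levels of these genes are uncertain. Relative to Ins1, the main insulin transcript, Gcg RPKM stood at 4.83 to 4.99% in the S487D libraries and at 2.04 to 2.06% in the S487A libraries, a ratio singled out after the values were seen. Ins1 itself averaged 16700 ± 551 RPKM in S487D and 4683 ± 292 RPKM in S487A.

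Gast, on chromosome 10 from 88245532 to 88248484 (rn6, plus strand), had the opposite pattern. It was read at 7.87, 7.77 and 8.78 RPKM in the S487D libraries and at 103, 96.1 and 106 RPKM in the S487A libraries. The groups were again far apart, with S487D low. The means were 8.14 ± 0.56 RPKM in S487D and 102 ± 5.0 RPKM in S487A (SD, n = 3 each), so that S487A held 12.5 times the S487D level, a difference of -3.49. The reads numbered 33 to 37 per S487D library and 462 to 485 per S487A library. In S487A cells Gast and Gcg were close in level, and their ranges over the libraries overlapped. In S487D cells Gcg RPKM was 92.1 to 110 times that of Gast.

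Nts, on chromosome 7 from 44111594 to 44120998 (rn6, minus strand), encodes the precursor of neurotensin and neuromedin N, peptides of gut N cells and neurons. It was read at 13.2, 12.8 and 12.6 RPKM in the S487D libraries and at 0.499, 0.577 and 0.366 RPKM in the S487A libraries. In S487A cells this was 3 to 5 reads per library, at or barely above the floor of 3 reads, against 95 to 108 reads per S487D library. The difference was 3.23 with the pseudocount of 1. The ratio of summed reads relative to depth was 26.7, with an exact 95% interval of 15.1 to 52.2 that covers counting error only. Nts passed the filter on low values only through the S487D libraries.

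Cck, on chromosome 8 from 130120524 to 130127295 (rn6, minus strand), encodes a gut and brain hormone whose active C-terminus resembles that of gastrin. It was read at 5.35, 4.23 and 3.83 RPKM in the S487D libraries and at 2.68, 2.76 and 2.92 RPKM in the S487A libraries. The groups did not overlap, and S487D was higher. The means were 4.47 ± 0.78 RPKM in S487D and 2.78 ± 0.12 RPKM in S487A (SD, n = 3 each), a difference of 0.52. The reads numbered 35 to 53 per S487D library and 26 to 29 per S487A library. Counting alone gave the ratio of 1.61 in summed reads relative to depth an exact 95% interval of 1.22 to 2.15. Cck and Gast, both ligands of the cholecystokinin receptors, thus differed in opposite directions.

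Ghrl, on chromosome 4 from 145674157 to 145678066 (rn6, minus strand), encodes ghrelin, the appetite-stimulating hormone of the stomach and of islet epsilon cells. It was read at 0.780, 0.630 and 1.06 RPKM in the S487D libraries and at 0.797, 1.10 and 1.56 RPKM in the S487A libraries. The groups overlapped, and 3 to 5 reads per S487D library and 4 to 8 per S487A library lay behind these values. The ratio of summed reads relative to depth was 0.712, with an exact 95% interval of 0.313 to 1.56 that covers counting error only.

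The other 4 genes were not detectable or nearly so. Sst, the islet delta cell hormone that restrains insulin and glucagon release, had 0 reads in all 6 libraries, and so had Ppy, the hormone of islet gamma cells, and Npy, a neuronal peptide. A count of 0 allowed up to 3 reads per library, or 0.489 to 0.562 RPKM for Sst, 0.568 to 0.654 RPKM for Ppy and 0.487 to 0.560 RPKM for Npy. Pyy, a gut L cell hormone often made together with proglucagon peptides, had 1 read in 1 S487A library and none in the other libraries, with a floor of 0.529 to 0.608 RPKM. Sst lies on chromosome 11 from 80358262 to 80359447, Npy on chromosome 4 from 79557856 to 79565059, Ppy on chromosome 10 from 90041582 to 90042877 and Pyy nearby on chromosome 10 from 90047989 to 90049112 (rn6). No row of the 9 genes overlapped another row of the table.

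**Figure D1:**
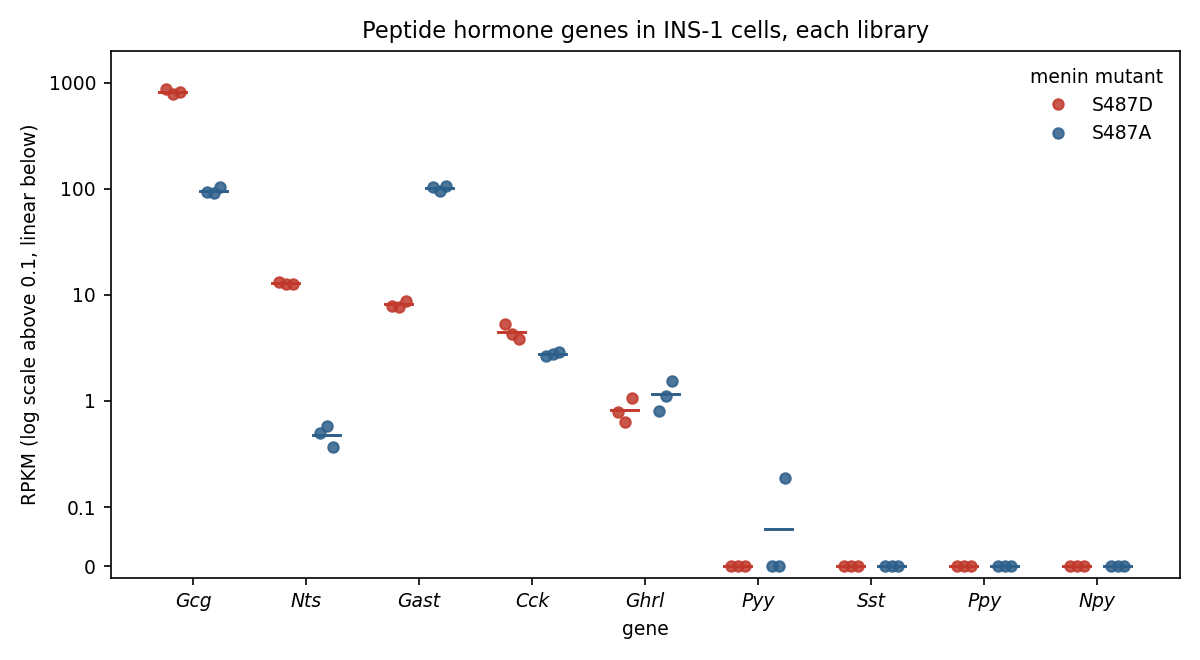
RPKM (log scale above 0.1, linear below) of the 9 hormone genes in each library, S487D in red and S487A in blue, with a line at each group's mean. Gcg and Nts sit higher in S487D and Gast lower, Cck is slightly higher, Ghrl overlaps, and Sst, Ppy and Npy are at 0 in every library.

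The order of the levels differed between the groups. In S487D cells it ran Gcg, Nts, Gast, Cck, Ghrl, and no neighbours in this order had overlapping ranges. In S487A cells it ran Gast, Gcg, Cck, Ghrl, Nts, Pyy, and only Gast and Gcg overlapped. The last 3 places rest on few reads per S487A library, 4 to 8 for Ghrl, 3 to 5 for Nts and at most 1 for Pyy. Counting error could change their order. Gcg made up 97.9% of the reads of the 9 genes in each S487D library and 66.4 to 68.1% in the S487A libraries. Gast made up 0.378 to 0.451% in S487D and 29.4 to 31.3% in S487A. Together the 9 genes took 0.0841 to 0.0928% of assigned reads in S487D and 0.0143 to 0.0160% in S487A. The spread of Gcg between libraries, a coefficient of variation of 5.07% in S487D and 6.87% in S487A, exceeded the 1.09% and 3.09% that counting alone gives. For Cck in S487D the spread was 17.5%, close to the 15.4% of counting alone. Some spreads were smaller than counting alone gives, so the SD there understates the counting error. They were 4.33% against 18.9% for Cck in S487A, 2.39% against 10% for Nts in S487D and 6.86% against 16.8% for Gast in S487D.

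Of the 9 genes, 5 passed the filter on low values and 4 did not. Of those 5, the libraries of the groups did not overlap for 4, where 54.6% of all 12527 tested genes had groups without overlap; 3 of the 4, Gcg, Nts and Cck, were higher in S487D and Gast was lower. Since the genes were picked with these values known, nothing is read from that count. Over all tested genes the median difference was -0.01 and 2.50% of genes differed by 1 or more. Ranked by difference, Nts was number 1 and Gcg number 2 upward, and Gast was number 5 downward.

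**Figure D2:**
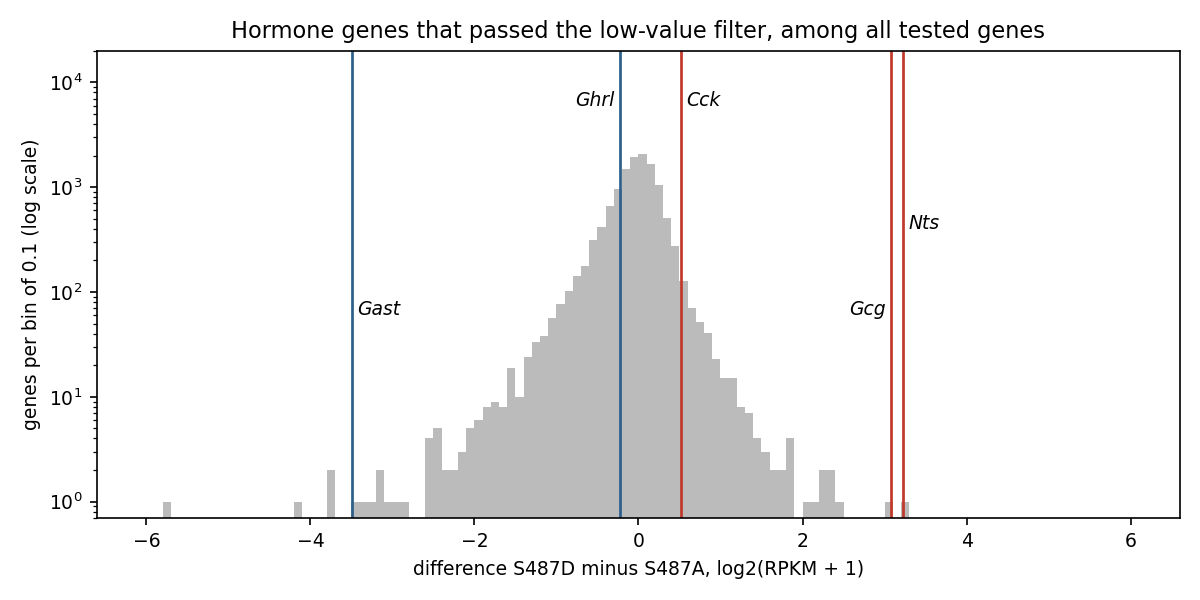
Distribution of the difference S487D minus S487A, log2(RPKM + 1), over the 12527 tested genes in bins of 0.1 (genes per bin on a log scale), with lines at the 5 hormone genes that passed the filter (red higher, blue lower in S487D). Nts at 3.23 and Gcg at 3.08 lie at the upper end and Gast at -3.49 near the lower end.

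The genes whose values over the 6 libraries lay nearest to those of Gcg, by root-mean-square distance of centred log2(RPKM + 1), were Wnt4 (distance 0.345), a Wnt ligand, Slc30a8 (0.347), the zinc transporter of insulin granules, and Upk3bl (0.388). Wnt4 averaged 35.5 ± 3.8 RPKM in S487D and 5.73 ± 0.45 RPKM in S487A, and Upk3bl was read at 3.66 to 4.34 RPKM in S487D and at 0 in every S487A library. The same 3 genes were nearest to Nts, at 0.415 to 0.463. Nearest to Gast were S100a3 (0.159), a calcium-binding protein gene, Muc13 (0.162), a transmembrane mucin gene, and Ifi27l2b (0.168). Muc13 averaged 3.50 ± 0.70 RPKM in S487D and 40.5 ± 1.1 RPKM in S487A (SD, n = 3 each). The distance describes likeness over these 6 libraries, which fall into 2 groups, and nothing more.

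Promoter windows of the hormones with the widest differences are shown so that the upstream sequence of Gcg and Nts, higher in S487D, can be set beside that of Gast, lower in S487D. They run from 250 bases before to 50 after the RefSeq gene start on the GRCr8 assembly, another build than the rn6 of the expression table, and 8 of the 9 genes had such a window (not Cck). The windows lie at chr3:67531484-67531783 for Gcg (minus strand), chr7:39460839-39461138 for Nts (minus strand) and chr10:85764966-85765265 for Gast (plus strand), and capitals mark matches to the motifs searched.
Gcg: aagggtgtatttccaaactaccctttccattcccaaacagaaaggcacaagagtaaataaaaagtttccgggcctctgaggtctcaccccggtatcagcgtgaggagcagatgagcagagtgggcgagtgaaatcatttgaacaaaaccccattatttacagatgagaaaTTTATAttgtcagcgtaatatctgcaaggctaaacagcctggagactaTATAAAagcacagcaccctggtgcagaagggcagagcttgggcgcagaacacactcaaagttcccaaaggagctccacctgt
Nts: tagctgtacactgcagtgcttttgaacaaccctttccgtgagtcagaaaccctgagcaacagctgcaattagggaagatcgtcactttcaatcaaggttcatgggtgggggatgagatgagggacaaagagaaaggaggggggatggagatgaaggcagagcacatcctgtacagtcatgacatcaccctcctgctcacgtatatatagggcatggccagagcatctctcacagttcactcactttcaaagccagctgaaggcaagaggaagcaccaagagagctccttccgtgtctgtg
Gast: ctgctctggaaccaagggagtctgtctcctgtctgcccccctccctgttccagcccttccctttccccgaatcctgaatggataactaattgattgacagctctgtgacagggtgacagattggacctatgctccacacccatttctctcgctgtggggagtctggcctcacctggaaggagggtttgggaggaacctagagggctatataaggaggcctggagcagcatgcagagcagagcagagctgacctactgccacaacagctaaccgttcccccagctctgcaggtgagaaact

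The motifs were searched on both strands. They were the cAMP response element TGACGTCA, the E-box CACGTG, the TATA box TATAAA, the forkhead motif TGTTTAC, the homeobox motif TAATTA, the MAF half-site TGCTGAC and the GC box GGGCGG. The Gcg window held TATAAA beginning 32 bases before the start and, on the opposite strand, 80 bases before it; 14.2% of the 33469 rat promoter windows of this length held this motif. The Nts and Gast windows, and those of Ghrl and Pyy, held none of the 7 motifs in these exact forms. Variant forms were not searched, so tatataa in the Gast window and tatatata in the Nts window were not counted. The search therefore does not show that these windows lack a TATA box. The Sst window held TGACGTCA, found in 1.83% of all windows, and TAATTA (5.36%), and the Ppy window held TATAAA and TGTTTAC (3.78%). Npy held GGGCGG (33.1%). CACGTG and TGCTGAC, in 6.42% and 4.44% of all windows, were found in none of the 8. GC content was 46.3% for Gcg, 50.3% for Nts and 55.7% for Gast, within the quartiles of all windows (44.7 to 60.3%).

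Around 5 of the hormone genes, those with a group mean of at least 1 RPKM, the nearest tested genes moved in both directions. Some of these genes lay far off, up to 4428 kb away. Of the 50 neighbours, 5 on each side, 14 rose, 12 fell and 24 passed no test, where 20.1% of all tested genes rose and 24.3% fell, 44.4% in all (limma, Benjamini-Hochberg adjusted p under 0.05 over all genes tested); their median difference was -0.03. Over all tested genes 2523 rose and 3041 fell, against 3096 and 2492 after quantile normalization and 3512 and 2453 after median centring. Around Gcg 2 rose and 3 fell. Gca, a calcium-binding protein gene 174 kb from it, had a difference of -0.42. Grb14, an adaptor of insulin receptor signalling 2486 kb from Gcg, singled out after its value was seen, had one of 0.72. Psmd14, a proteasome subunit gene 769 kb from Gcg, rose by 0.23 with limma adjusted p = 0.0194, a call lost in 3 of 14 alternatives (adjusted p from 0.00386 to 0.0544). Another called gene, 2117 kb from Gcg, whose symbol the table turns into a date, fell by 0.25 and lost the call in 8 of 14 alternatives (limma adjusted p from 0.004 to 0.175). Around Gast 3 rose and 3 fell. Those that rose lay further off, Smarce1 by 0.88 at 1107 kb, Igfbp4 by 0.59 at 1283 kb and Top2a by 0.12 at 1315 kb. The call of Top2a was lost in 7 of 14 alternatives. Hap1, only 9.49 kb away, fell to 62.2 ± 1.7 RPKM in S487D, against 93.7 ± 3.2 RPKM in S487A (difference -0.58, limma adjusted p = 5.01e-06), and the plakoglobin gene Jup, 32.0 kb away, fell with a difference of -0.20. Klhl11 was called too (-0.16), but its limma adjusted p ran from 0.0366 to 0.150 over 14 alternatives and missed the threshold in 9. Eif1, a translation initiation factor gene 16.0 kb on the other side, averaged 191 ± 8.5 RPKM in S487D and 189 ± 16 RPKM in S487A.

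Around Nts 2 rose and 3 fell, and 1 transcript stood opposite to the hormone gene. LOC100910482, a long non-coding RNA gene in RefSeq that lies 22.9 kb from Nts, was read at 0.131, 0.212 and 0.214 RPKM in the S487D libraries and at 3.75, 3.34 and 3.99 RPKM in the S487A libraries (difference -1.98, SE 0.0961, limma adjusted p = 3.99e-07). These were 2 to 3 reads per S487D library, at or below the floor of 3 reads, and 54 to 61 per S487A library. This transcript passed the filter on low values only through the S487A libraries where it was high, which limits its p-value. Only 10 of the 14 alternatives gave it a value. Nts was thus high where this transcript was low, and the next tested gene on that side, Kitlg, lay 1761 kb away. Further out on that side Poc1b, a centriole protein gene, fell by 0.46 and Galnt4, a glycosyltransferase gene, by 0.36; their rows overlap each other. Around Cck 2 of 10 genes rose and 1 fell. Vipr1, a receptor of vasoactive intestinal peptide 156 kb away, rose by 0.38, and Nktr fell by 0.42. LOC687029 rose by 0.23, a call lost in 7 of 14 alternatives (limma adjusted p from 0.00566 to 0.118). Around Ghrl 5 of 10 rose and 2 fell, with differences from -0.27 to 0.21, among them Tatdn2 and Sec13 on either side of it, which both rose by 0.21. The nearby tumour suppressor gene Vhl rose by 0.14, a call lost in 7 of 14 alternatives (limma adjusted p from 0.00793 to 0.151).

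**Figure D3:**
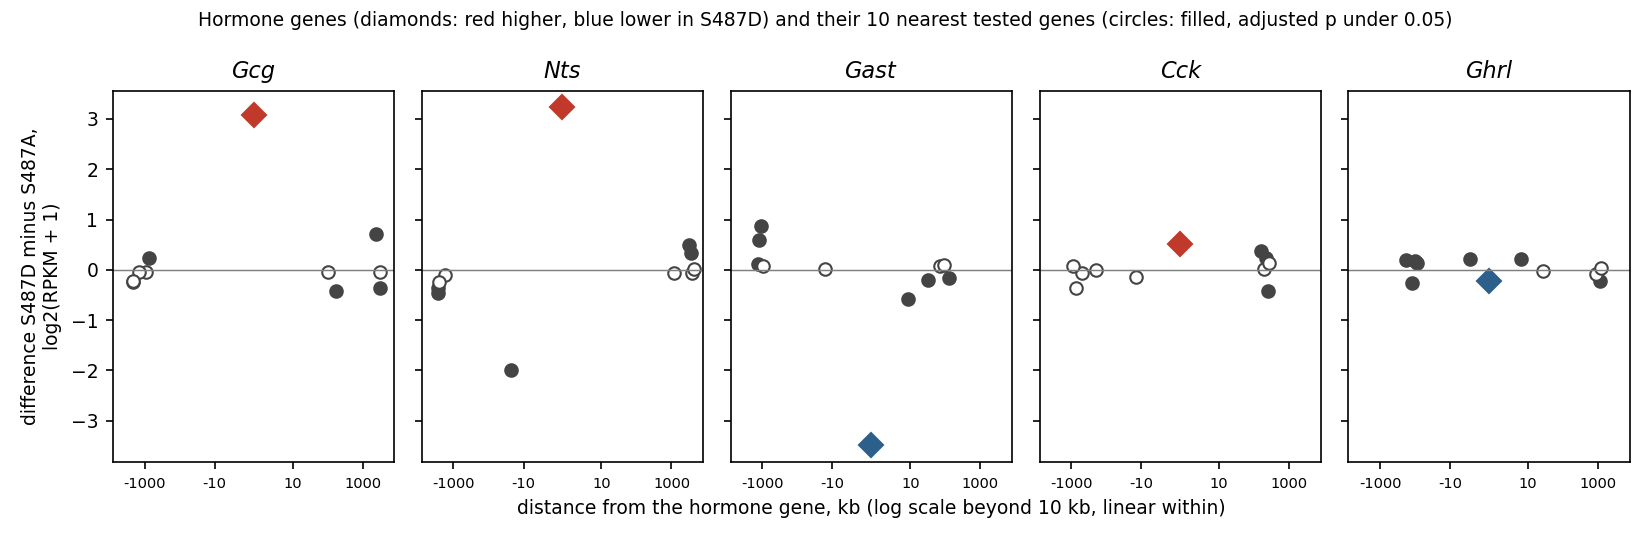
Difference S487D minus S487A, log2(RPKM + 1), of 5 hormone genes (diamonds, red higher and blue lower in S487D) and of their 10 nearest tested genes (circles, filled where the limma adjusted p was under 0.05), against distance in kb (log scale beyond 10 kb, linear within). Gcg at 3.08, Nts at 3.23 and Gast at -3.49 lie outside the range of the genes drawn beside them, and 1 transcript near Nts lies at -1.98. The hormone genes were selected with their values known, so nothing is read from their place outside that range.

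Few receptor genes of these peptides passed the filter. Of 18 receptor genes, 5 were tested, of which 3 rose, 1 fell and 1 passed no test, beside 44.4% called over all tested genes, and the median difference was 0.14, against -0.01 over all tested genes. Glp1r, the GLP-1 receptor gene, fell to 27.8, 25.0 and 27.6 RPKM in the S487D libraries, against 42.5, 45.2 and 44.4 RPKM in the S487A libraries (difference -0.70, limma adjusted p = 6.39e-06). Gcgr, the glucagon receptor gene, averaged 48.0 ± 1.3 RPKM in S487D and 43.6 ± 2.0 RPKM in S487A (difference 0.14, limma adjusted p = 0.0378); this call was lost in 5 of 14 alternatives, with adjusted p from 0.00374 to 0.130, and its row overlaps another. The somatostatin receptor genes Sstr3 and Sstr1 rose. Sstr3 stood at 18.3, 17.8 and 18.1 RPKM in S487D and at 9.98, 11.4 and 10.9 RPKM in S487A (difference 0.70, limma adjusted p = 1.26e-05), and Sstr1 averaged 2.98 ± 0.19 RPKM in S487D and 1.26 ± 0.057 RPKM in S487A (difference 0.81, limma adjusted p = 4.99e-05). Sort1, encoding sortilin, which also binds neurotensin, averaged 2.24 ± 0.17 RPKM in S487D and 2.70 ± 0.22 RPKM in S487A and passed no test (limma adjusted p = 0.096). The classical neurotensin receptor genes Ntsr1 and Ntsr2, the gastrin and cholecystokinin receptor genes Cckbr and Cckar, Glp2r and the neuropeptide Y receptor genes did not pass the filter. Ntsr2, the ghrelin receptor gene Ghsr, Sstr4, Npy2r and Npy5r, whose row overlaps another, had no read in any library.

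Genes that cut, amidate or degrade the peptides changed in both directions. Of 20 listed, 15 were tested, of which 3 rose, 5 fell and 7 passed no test, with a median difference of -0.02, where 44.4% of all tested genes were called and their median was -0.01. The share called in this list, 53.3%, is near that of all tested genes. Pcsk2, encoding prohormone convertase 2, rose to 325 ± 6.4 RPKM in S487D, against 164 ± 2.9 RPKM in S487A (difference 0.98, limma adjusted p = 6.52e-08). Its row overlaps another. Pcsk1, encoding convertase 1/3, rose to 7.24 ± 0.45 RPKM in S487D, against 5.76 ± 0.064 RPKM in S487A (difference 0.29, limma adjusted p = 0.00582), in a row that also overlaps another. In both groups Pcsk2 was far more abundant per length than Pcsk1. Pam, the amidating enzyme gene, rose by 0.52. Scg5, encoding the 7B2 chaperone of convertase 2, fell by 0.67, and the peptidase genes Nln (neurolysin, which degrades neurotensin), Prep and Ece1 fell by 0.68, 0.34 and 0.32. The Prep row overlaps another. Cpe, encoding carboxypeptidase E, averaged 644 ± 14 RPKM in S487D and 648 ± 14 RPKM in S487A. Mboat4, encoding the acyltransferase that activates ghrelin, and Dpp4, whose product inactivates GLP-1, did not pass the filter.

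Transcription factors that act on these genes or set non-beta endocrine lineages changed in both directions. Of 38 listed, 26 were tested, of which 6 rose, 12 fell and 8 passed no test, where 20.1% of all tested genes rose and 24.3% fell. Their median difference was -0.08, against -0.01 over all tested genes; the counts were 9 higher and 11 lower after centring each library on its median. One of the 6 was Men1, the transgene's own gene. Mafa, an insulin gene activator, rose to 133 ± 11 RPKM in S487D, against 35.0 ± 1.0 RPKM in S487A (difference 1.89, limma adjusted p = 2.18e-08). Foxa3, a forkhead factor gene, rose by 0.58. Rfx6 and Rfx3, factors of islet endocrine cell formation, fell by 1.11 and 0.75, Nkx6-1, a beta cell factor that represses glucagon expression, by 1.03, and Atf1, a relative of CREB, by 0.65. The Rfx3 row overlaps another. Pax6 and Foxa2 bind the glucagon gene promoter and were singled out after their values were seen. Pax6 fell by 0.27 (limma adjusted p = 0.00122) and Foxa2 passed no test, at 40.8 ± 1.7 RPKM in S487D and 38.8 ± 2.5 RPKM in S487A.

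Of 8 alpha cell markers other than Gcg, 3 passed the filter and 5 did not. Slc7a2, an arginine transporter gene, rose to 15.0 ± 1.3 RPKM in S487D, against 4.47 ± 0.27 RPKM in S487A (difference 1.54, limma adjusted p = 3.38e-07), and Gc, encoding vitamin D binding protein, averaged 344 ± 10.4 RPKM in S487D and 364 ± 14.9 RPKM in S487A and passed no test (limma adjusted p = 0.151). The summed level of the list, mostly Gc, was 371 to 391 RPKM in S487D and 368 to 396 RPKM in S487A. Irx1 and Irx2 had at most 2 reads per S487D library and at most 6 per S487A library. Loxl4 averaged 0.0181 RPKM in S487D and 0.00572 RPKM in S487A, and Ttr was at 0. The rows of Loxl4 and Ttr each overlap another. Of the 4 delta cell markers only Casr, the calcium-sensing receptor gene, passed the filter, and it fell by 0.94; the list summed to 12.4 to 13.1 RPKM in S487D and 24.6 to 25.6 RPKM in S487A, and Hhex, the delta cell factor, averaged 0.0406 RPKM in S487D and 0.202 RPKM in S487A. Of the 6 enteroendocrine markers only Fev passed, and it fell by 0.57. That list summed to 4.51 to 5.75 RPKM in S487D and 8.04 to 8.75 RPKM in S487A, and its member Neurog3 was at 0. The delta cell sum, mostly Casr, and the enteroendocrine sum, mostly Fev, moved with the groups, and their part in the hormone levels was not tested.

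Other neuroendocrine peptide genes mostly lay below the filter. Of 49 listed, 47 were found by symbol and 14 tested, of which 3 rose, 2 fell and 9 passed no test, with a median difference of -0.00. The share called was 35.7%, against 44.4% over all tested genes, whose median was -0.01; the counts were 3 higher and 1 lower after quantile normalization or median centring. Edn3, encoding the vasoactive peptide endothelin 3, was read at 11.1, 12.7 and 15.1 RPKM in the S487D libraries and at 2.84, 1.50 and 1.98 RPKM in the S487A libraries, the widest difference of the list (2.18, SE 0.153, limma adjusted p = 4.08e-06). Guca2b, encoding uroguanylin, a gut peptide that controls intestinal fluid, rose to 31.9 ± 3.6 RPKM in S487D, against 15.1 ± 2.2 RPKM in S487A (difference 1.03, limma adjusted p = 4.53e-05). Tac1, the substance P precursor gene, rose by 0.50 (limma adjusted p = 0.00643). Tff3, a trefoil peptide gene, had a difference of -0.29 with limma adjusted p = 0.0243, a call lost in 7 of 14 alternatives (0.00116 to 0.0811), and Npff a difference of -0.46 with limma adjusted p = 0.0144, lost in 4 of 13 (0.00239 to 0.141). Without S487A replicate 2, 3 genes of this list rose and 0 fell. Vip, Adcyap1, Crh, Gal, Grp, Ucn2, Ghrh and Npvf had no read in any library.

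**Figure D4:**
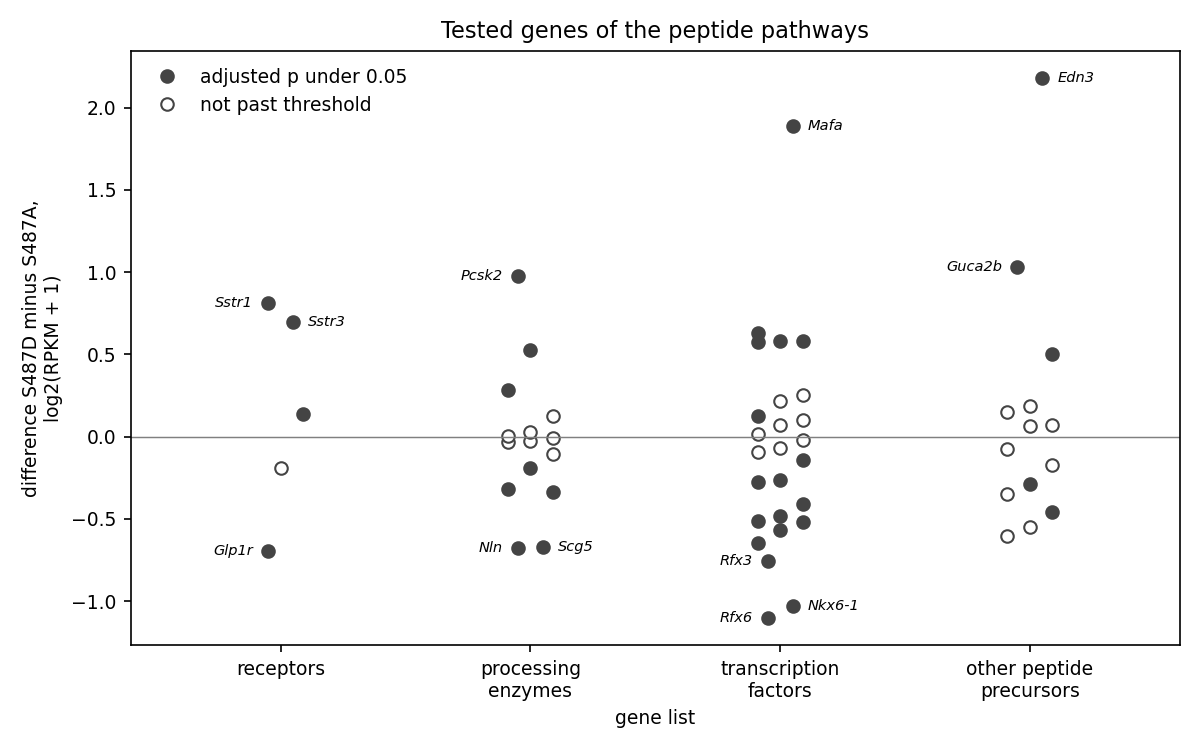
Difference S487D minus S487A, log2(RPKM + 1), of the tested genes in 4 lists: receptors (5 genes), processing and degrading enzymes (15), transcription factors (26) and other peptide precursors (14). Filled points had a limma adjusted p under 0.05, and names mark the called genes with the wider differences; Edn3 at 2.18 and Mafa at 1.89 stand highest, Rfx6 at -1.11 lowest.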

How the data were processed

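Messenger RNA of 6 INS-1 samples, 3 S487D and 3 S487A, was sequenced. The TruSeq kit named in the labels does not mark strand. Overlapping rows are pointed out for the hormone genes and for genes named from the lists. The submitters' processing notes name bcl2fastq 2.17, cutadapt, TopHat2 2.0.13 and the build rn6 (Rnor_6.0); counter and annotation: not given in the sources used here. Values are the authors' RPKM, as deposited per gene and library. RPKM times gene length gave whole reads, within 0.05, for at least 99.953% of values above 0, and reads quoted are these.

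Differences were fitted with limma 3.58.1 in R 4.3.3 on log2(RPKM + 1) with an intensity trend and group as the only term, for the 12527 genes that reached RPKM 1 in 3 or more libraries; p-values were Benjamini-Hochberg adjusted over all of them. The fit was also run on simulated reads, with far fewer changed genes than were called here, and no result above rests on that run. The hormone genes and the gene lists were chosen with earlier results of these data known. Genes named were the 9 hormones, Men1, Ins1, Ins2 and Iapp, and the 3 nearest called neighbours of a locus. In each list, up to 4 called genes per direction with the smallest p and genes near 0 were named. For hormones differing at least 2-fold, so were the 3 genes nearest in pattern, other than hormones and rows without a regular symbol. Cpe, Eif1, Kitlg, Grb14, Smarce1, Igfbp4, Top2a, Pdx1, Pax6 and Foxa2 were added after their values were seen. Libraries of a group varied beyond counting error (chi-square 1.36 to 1.88 times that of counting, in the median), and each counted as 1 replicate. Exact 95% intervals and floors of 3 reads cover counting error only. Alternatives changed the pseudocount, filter, scaling and trend, added a replicate block, used voom on the recovered reads or left out a library. Promoter windows came from RefSeq (GRCr8). Some listed genes are not reported here by name.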

Additional observations from a re-analysis of the deposited data

How the results depend on the processing

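Over all tested genes, 2523 rose and 3041 fell (45.3% of calls upward), against 55.4% upward after quantile normalization and 58.9% after median centring; voom on the recovered reads called 5951. Leaving out 1 library gave 4603 to 4851 calls in place of 5564, 3 to 4 in place of 4 for receptors, 8 to 9 in place of 8 for processing genes, 16 to 18 in place of 18 for transcription factors, 3 to 6 in place of 5 for other peptides and 19 to 24 in place of 26 for neighbours; the lowest count for other peptides came without S487A replicate 2. The replicate block gave 8 calls for other peptides, 3 higher and 5 lower, and moved no other count by over 1.5 times. Replicate numbers did not pair the libraries, with correlations of deviations between libraries of the same number of 0.00354, -0.0599 and 0.00998.

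Hormone differences kept their sign in every alternative that gave a value. Gcg stood at 3.08, and at 2.94 after quantile normalization. Gast stood at -3.49, and at -3.63 both with a pseudocount of 0.1 and with voom. Nts, with 3 to 5 reads per S487A library, stood at 3.23, at 4.50 with a pseudocount of 0.1, at 4.60 with voom and at 3.39 after quantile normalization. Leaving out 1 library gave 3.04 to 3.13 for Gcg, -3.54 to -3.46 for Gast, 3.17 to 3.28 for Nts, -0.35 to -0.15 for Ghrl, 0.41 to 0.61 for Cck and 0.54 to 0.64 for Men1. Without an S487D library Nts no longer passed the filter and gave no value, nor did Ghrl without S487D replicate 3 or S487A replicate 2 or 3, nor Cck and Ghrl with a filter at RPKM 5. For the 4 hormone genes that did not pass the filter no fit was reported. Depth limits Ghrl, Pyy, Sst, Ppy and Npy, which had at most 8 reads in a library.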
